A study of Mus musculus with 3 samples.

Results

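The iron uptake and storage genes considered here are Tfrc, Slc11a2, Steap3, Fth1, Ftl1, Ncoa4, Slc40a1, Slc25a37, Ireb2 and Aco1. They are the 10 rows, of 44788 in the deposited count table, whose symbol equals a gene on a fixed list, so the rule itself uses no measured value. The table holds 3 RNA-sequencing libraries (replicates 1, 2 and 3) of splenic T lymphocytes from female BALB/c mice aged 6 to 8 weeks, taken up on beads against CD90.2 (the Thy-1.2 antigen, which mouse T cells carry). All were cultured in medium with 2% fetal bovine serum and received LZ-8, an immunomodulatory protein from the fungus Ganoderma lucidum, for 10 h. As every library had this treatment, only levels under LZ-8 are described, and its effect is not measured. Nothing in the labels tells separate mice from pools or repeat cultures, so SDs describe the spread among these libraries alone, possibly a technical one. The p-values also cover these libraries alone. Those of the chi-square test used below set their differences against counting error, except where a negative binomial form is named.

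A T cell takes up iron mainly as transferrin, which binds transferrin receptor 1 (Tfrc) and is carried into endosomes. There the metal is reduced by STEAP enzymes and passes into the cytosol through DMT1 (Slc11a2). Iron that is not used at once is stored in ferritin, a shell of heavy (Fth1) and light (Ftl1) chains, and is released when NCOA4 carries ferritin to the lysosome. Ferroportin (Slc40a1) is the only known exporter of iron from mammalian cells, and mitoferrin 1 (Slc25a37) brings iron into mitochondria. The RNA-binding proteins IRP1 (Aco1) and IRP2 (Ireb2) bind iron response elements when iron is short. Binding in a 5′ untranslated region blocks translation, and binding in the 3′ untranslated region of the Tfrc transcript protects it from decay. Activated T cells are known to raise transferrin receptor before they divide.

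The elements themselves are shown first because their place sets apart the Tfrc transcript from the ferritin transcripts Fth1 and Ftl1. Annotated coding transcripts (GENCODE M21, GRCm38) were searched on the sense strand for the loop CAGTGN with a C before the 5 upstream stem bases, and a match was kept when these 5 bases pair with the 5 after the loop, G-U pairs included. Each line has 30 bases, 5′ to 3′ on the transcript, with the CAGTGN loop in capitals.
Tfrc 3′ untranslated region, chr16:32631219-32631248, plus strand: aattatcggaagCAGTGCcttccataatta
Tfrc 3′ untranslated region, chr16:32631598-32631627, plus strand: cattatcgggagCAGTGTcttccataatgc
Tfrc 3′ untranslated region, chr16:32631663-32631692, plus strand: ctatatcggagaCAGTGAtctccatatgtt
Tfrc 3′ untranslated region, chr16:32631710-32631739, plus strand: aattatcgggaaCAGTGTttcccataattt
Fth1 5′ untranslated region, chr19:9982732-9982761, plus strand: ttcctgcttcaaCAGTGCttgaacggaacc
Ftl1 5′ untranslated region, chr7:45459778-45459807, minus strand: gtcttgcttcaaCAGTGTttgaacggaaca
Slc40a1 5′ untranslated region, chr1:45925464-45925493, minus strand: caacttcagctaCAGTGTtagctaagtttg
Slc11a2 3′ untranslated region, chr15:100395152-100395181, minus strand: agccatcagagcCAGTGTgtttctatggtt

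The first 7 lines have all 5 stem pairs, and the Slc11a2 line, a weaker match kept for its known role, has 4. Among coding genes with an annotated 5′ untranslated region, 31 of 20916 (0.148%) held a full match there, and 129 of 21045 (0.613%) held one in the 3′ untranslated region. With 4 or 5 pairs allowed, as for Slc11a2, 872 of 21045 did, so that match is much less specific. Tfrc was the only coding gene with more than 1 full match in a 3′ untranslated region, with 4, the first of which starts 888 bases after the coding end. Elements with another loop or stem would be missed, so 4 counts these letters and need not be every element. On the sense strand of whole transcripts 294 of 21901 genes (1.34%) had a full match, against 242 (1.1%) on the antisense strand. Ireb2, Aco1, Steap3, Slc25a37 and Ncoa4 had no match, which says only that these letters are not in their annotated transcripts. A match is a description of sequence and measures no binding.

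**Figure D1:**
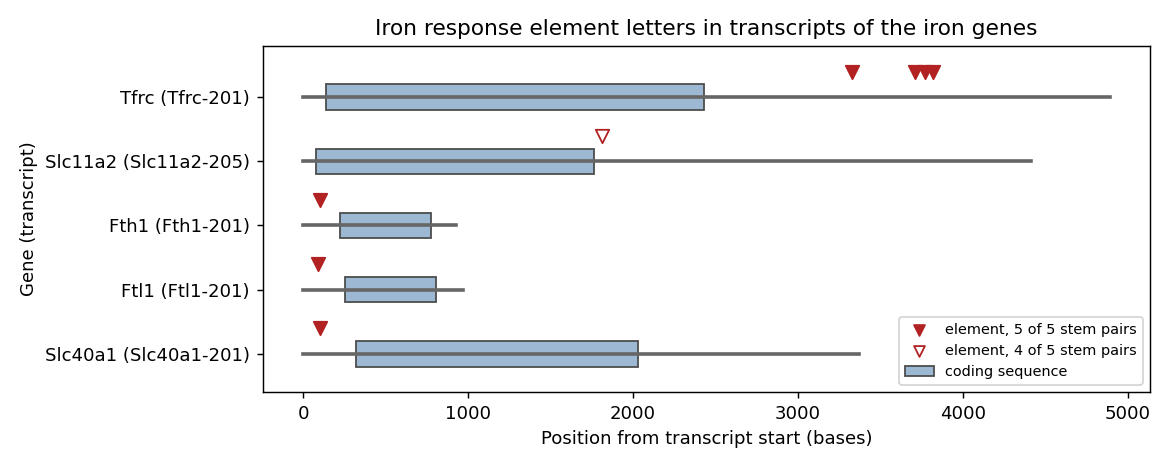
Transcripts of the 5 iron genes with a match, drawn to scale in bases from the transcript start, with the coding sequence as a box and each iron response element as a triangle (filled for 5 stem pairs, open for 4). Fth1, Ftl1 and Slc40a1 carry the element before the coding sequence, and Tfrc and Slc11a2 carry it after.

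The libraries held 13239482, 15007652 and 15683820 counts in replicates 1, 2 and 3, and levels are given as CPM, for which each count is divided by the TMM-scaled total of its library. A level of 3 counts, taken as the detection floor, is 0.236, 0.198 and 0.186 CPM, and floors and counting intervals cover counting error only. The libraries stand apart in a way the labels do not explain. A row of 18S ribosomal RNA took 5.83% of counts in replicate 1, 2.37% in replicate 2 and 0.992% in replicate 3, and coding genes with little exon sequence were higher in replicate 1 than in replicate 3. The T cell label fits its markers, with 12 of 12 at 100 CPM or more. Summed markers of red pulp macrophages and monocytes, which handle much iron, came to 0.33% to 0.427% of the T cell sum, with Csf1r, C1qa, C1qb and C1qc at 0 counts and Mpeg1 (9.2 ± 1.44 CPM, mean ± SD of 3 libraries) and Cd68 (5.57 ± 0.265 CPM) the most abundant. Summed erythroid markers came to 0.275% to 0.3% of it, with Klf1 and Rhag among the markers at 0 counts and Car2 (3.74 ± 0.5 CPM) and Gata1 (3.53 ± 0.918 CPM) leading. Of the B cell, neutrophil and NK cell markers 6 of 6, 0 of 7 and 0 of 5 reached 1 CPM and none reached 10 CPM. Pax5, of the B cell list, had 2.96 ± 0.228 CPM. The neutrophil and NK cell lists were led by Ngp (0.179 ± 0.255 CPM) and S100a9 (0.171 ± 0.159 CPM), and by Klrb1c (0.815 ± 0.0456 CPM) and Klre1 (0.0413 ± 0.0715 CPM). In the T cell list Cd6 (887 ± 45.4 CPM) and Cd5 (651 ± 26.3 CPM) led.

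Iron uptake was represented by a very abundant receptor and a modest endosomal transporter. Tfrc (chr16:32608920-32632794, plus strand) had 409.5, 509 and 535 CPM in replicates 1, 2 and 3, and a mean of 484 ± 66.1 CPM (SD, n = 3 libraries, as for every mean here). This is the 98.9th percentile of the 23131 rows with a count. Of the 10 iron genes 8 reached 1 CPM and the same 8 reached 10 CPM, against 58.6% and 39.8% of those rows, and 3 reached 100 CPM, against 11.0%. Slc11a2 (chr15:100387898-100425072, minus strand), which moves ferrous iron out of the endosome, had 31.7, 33.6 and 36.2 CPM, with a mean of 33.8 ± 2.26 CPM. Gm5475, which overlaps it on the opposite strand, had 0 counts. Its transcripts end with or without the element shown above, and the counts per symbol do not separate them. Per kilobase of exon, Tfrc was 14.6-fold above Slc11a2, with log2 ratios of 3.73, 3.96 and 3.92 in the 3 libraries. With the lengths of the lowest-numbered GENCODE transcripts, chosen after seeing the data, it was 8.81-fold above. All point the same way, but with 3 libraries the exact two-sided sign-flip test can reach no p smaller than 0.25. In RNA from a whole pool, fewer cells of a type and less RNA per cell cannot be told apart.

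Steap3 (chr1:120190757-120272705, minus strand), the ferrireductase of the transferrin cycle best known from erythroid precursors, was near the limit of detection. It had 11, 9 and 9 counts, or 0.864, 0.594 and 0.557 CPM. The exact 95% Poisson intervals of replicates 1, 2 and 3 were 0.431 to 1.55, 0.271 to 1.13 and 0.255 to 1.06 CPM and overlap. Steap1 and Steap4, related reductases, had 0 counts in every library, and Steap2 averaged 0.0482 ± 0.0422 CPM, so no member of the family measured here was abundant.

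Both ferritin chains were among the most abundant transcripts. Fth1 (chr19:9980598-9985098, plus strand), the chain with ferroxidase activity, had 359.7, 250.2 and 198 CPM in replicates 1, 2 and 3, with a mean of 269 ± 82.6 CPM. Ftl1 (chr7:45457944-45459884, minus strand), the chain that aids formation of the iron core, had 343, 305 and 269.6 CPM, with a mean of 306 ± 36.8 CPM. Both were highest in replicate 1 and lowest in replicate 3. Summed markers of red pulp macrophages and monocytes, cells rich in ferritin, came to 13.6, 16.7 and 16.7 CPM in replicates 1, 2 and 3 and so were lowest in replicate 1. The erythroid sums (12.3, 10.7 and 11.0 CPM), B cell sums (14.4, 12.5 and 12.5 CPM) and neutrophil sums (1.18, 0.462 and 0.124 CPM) were highest in replicate 1, as ferritin was. So were the T cell sums (4115, 3911 and 3942 CPM), while the NK cell sums (0.786, 0.791 and 0.991 CPM) were lowest there. The erythroid and T cell sums were lowest in replicate 2, where ferritin was not. The part of cells other than T cells in the ferritin levels was not tested. Fth1 was above Ftl1 in replicate 1 and below it in replicates 2 and 3. Not divided by length, the log2 ratio of Fth1 to Ftl1 was -0.22 ± 0.26, no larger than its spread. Per kilobase of all annotated exons it was -1.59 ± 0.26 (0.331-fold). The union of annotated exons is 3469 bases for Fth1, while its lowest-numbered GENCODE transcript has 929 bases and that of Ftl1 968. With the lengths of the lowest-numbered transcripts, chosen after these values were seen, the ratio was -0.16 ± 0.26. The mean was below 0 under each length, and its size, and whether it passed the spread, changed with the length.

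**Figure D2:**
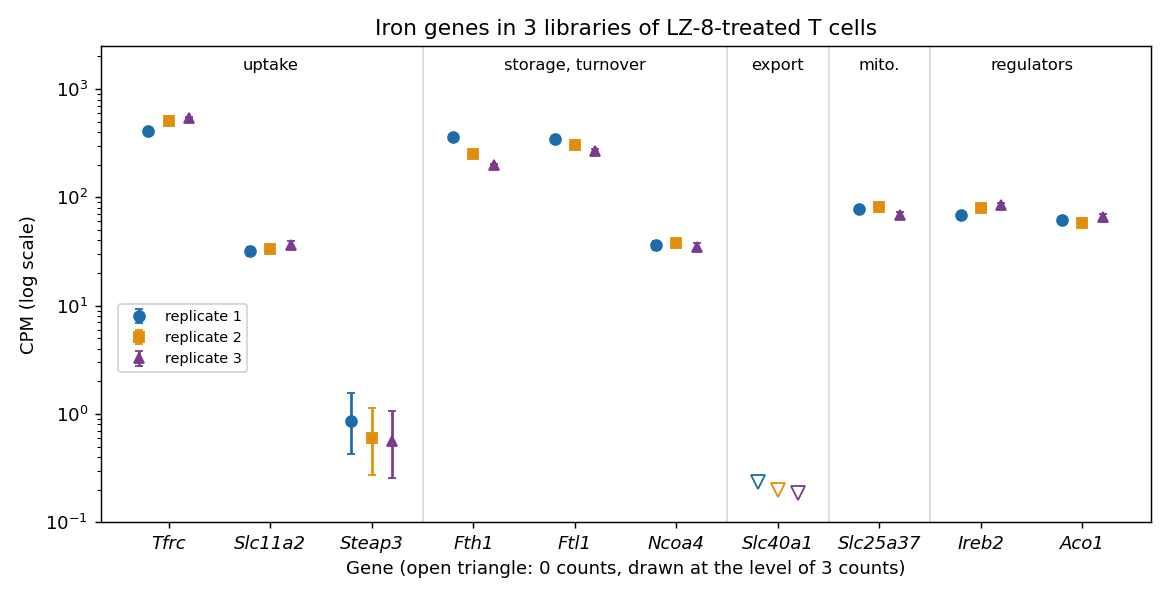
CPM (log scale) of the 10 iron genes in replicates 1, 2 and 3, grouped by role, with exact 95% Poisson intervals as bars and open triangles at the level of 3 counts where a gene had 0. Tfrc, Fth1 and Ftl1 lie between 198 and 535 CPM, Steap3 lies under 1 CPM and Slc40a1 has no counts.

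The exporter was not detected. Slc40a1 (chr1:45908068-45926523, minus strand) had 0 counts in all 3 libraries, where the floor of 3 counts stands at 0.236, 0.198 and 0.186 CPM in replicates 1, 2 and 3. The upper ends of the exact two-sided 95% Poisson intervals were 0.29, 0.243 and 0.228 CPM. Per kilobase, Tfrc was 2529-fold higher than Slc40a1 in replicate 1, with Slc40a1 set to 3 counts in each library. The upper ends of the intervals lie above 3 counts, so this fold is not a strict lower bound. With the length of the longest coding transcript and the same 3 counts, Tfrc was 1198-fold higher there. The mean log2 ratio over libraries was then 10.66, against 11.74 with all exons. Of the further genes of iron and haem export, Heph and Hephl1, ferroxidases that work with ferroportin, had 0 counts too. The haem exporter Flvcr1, listed under its older symbol Mfsd7b, was at 59.9 ± 6.18 CPM, and Abcg2, a transporter that also accepts porphyrins, was at 1.17 ± 0.434 CPM.

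Ncoa4 (chr14:32159865-32179855, plus strand), the receptor that delivers ferritin to the lysosome, was steady between libraries but shares its sequence with a processed copy. It had 36.1, 37.9 and 35.1 CPM, with a mean of 36.4 ± 1.38 CPM. The pseudogene Gm6768 (chr12:119260978-119262855) matches the Ncoa4 transcript over 1878 bases at 99.9% identity and had 49.7, 56.6 and 52.7 CPM, above the Ncoa4 row in each library. Its reads came to 146% of those of Ncoa4. No source used here gives the rule for reads that match both, so the level of Ncoa4 is uncertain. The sum of both rows was 89.4 ± 4.54 CPM.

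The ferritin light chain has the same uncertainty on a wider scale. Of 22 annotated genes that match Ftl1 at 90% identity or more over 50% or more of the shorter sequence, 13 are microRNA hairpins and 7 have a row in the table. The largest were Gm10116, at 99.6% identity and 88.2 ± 14.3 CPM, and Ftl2, at 98.7% identity and 48.4 ± 8.61 CPM. Added to Ftl1, the 7 rows raised the level to 494 ± 72.5 CPM. Fth1 had 1 such copy, Gm6977, at 90.5% identity and 6.1 ± 2.34 CPM. The Tfrc, Slc40a1, Ireb2, Aco1, Steap3 and Slc25a37 transcripts had none, and the 8 matches of Slc11a2 are microRNA hairpins with no row in the table. With copies added to both chains, the log2 ratio of Fth1 to Ftl1 per kilobase of exon was -2.25 ± 0.23, against -1.59 ± 0.26 without.

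**Figure D3:**
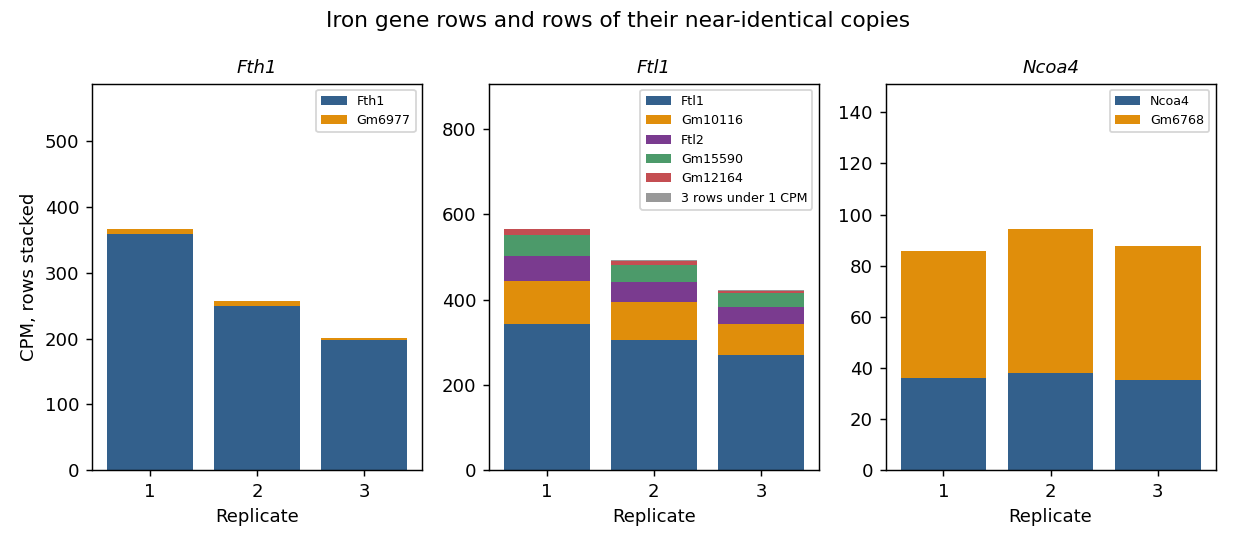
CPM of the rows of Fth1, Ftl1 and Ncoa4 in replicates 1, 2 and 3, with the rows of their near-identical copies stacked on top. Gm6768 exceeds the Ncoa4 row in every library, whereas Gm6977 adds 3.41 to 7.7 CPM to Fth1.

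Both mitoferrin genes, which serve mitochondrial import, were expressed. Slc25a37 (chr14:69241848-69285112, minus strand), mitoferrin 1, had 78.2, 81.8 and 69.4 CPM, with a mean of 76.5 ± 6.39 CPM. Slc25a28, mitoferrin 2, the form found in most tissues, averaged 34.8 ± 1.53 CPM. The log2 ratio of Slc25a37 to Slc25a28 was 0.45 ± 0.15 per kilobase of exon and positive in all libraries. With the longest coding transcript as the length it was -0.31, so which mitoferrin is the more abundant per length was not settled. The annotated genes Gm27222, Gm27223, Gm31748 and Gm20236 overlap Slc25a37, and whether the counting used the strand is not given. Gm20236 is the only one of them with a row, and it had 6 to 11 counts.

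The regulators were close to each other in level. Ireb2 (chr9:54863789-54912530, plus strand), encoding IRP2, had 68.2, 80.2 and 84.2 CPM, with a mean of 77.5 ± 8.33 CPM. Aco1 (chr4:40143081-40198338, plus strand), encoding IRP1, which is the cytosolic aconitase when it holds an iron-sulphur cluster, had 61.4, 57.9 and 65.8 CPM, with a mean of 61.7 ± 3.95 CPM. Ireb2 was above Aco1 in CPM in all 3 libraries, with a log2 ratio of 0.33 ± 0.16. Per kilobase of exon it was below, at -0.75 ± 0.16, since Ireb2 has 9479 bases of annotated exon and Aco1 4496. Fbxl5, the ubiquitin ligase subunit that senses iron and removes IRP2, had 38.3, 40.6 and 45.3 CPM.

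Per kilobase of annotated exon, the 9 detected genes ran in level from Ftl1 (228 ± 27.5) through Tfrc (78.3 ± 10.7), Fth1 (77.6 ± 23.8), Aco1 (13.7 ± 0.879), Slc25a37 (12.7 ± 1.06), Ireb2 (8.18 ± 0.878), Slc11a2 (5.33 ± 0.356) and Ncoa4 (3.88 ± 0.148) to Steap3 (0.118 ± 0.0293). Tfrc and Fth1, and Aco1 and Slc25a37, did not differ beyond their spread, and every other pair of neighbours did in all 3 libraries. The order of Slc11a2 and Ncoa4 turned with the length: Ncoa4 was above Slc11a2 in all 3 libraries with the longest coding transcripts (log2 ratio 0.22 ± 0.13), and they did not differ beyond their spread with the lowest-numbered ones. With the lowest-numbered transcripts Fth1 stood at 289.8 ± 89 and Tfrc at 99 ± 13.5, and the log2 ratio of Tfrc to Fth1 was -1.51 ± 0.64, against 0.05 ± 0.64 with all exons. Ncoa4 was 0.0516-fold of Fth1 per kilobase of exon, a log2 ratio of -4.28 ± 0.42.

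With only library size scaled, Tfrc rose and Fth1 fell from replicate 1 to replicate 3. After removal of the length and GC trend described below, Tfrc ranged only 1.09-fold and was highest in replicate 2. Which genes differ by more than counting noise was asked with a chi-square test that set each gene's 3 counts against the scaled library sizes, with Benjamini-Hochberg adjustment over 15392 genes. It called 6 of the 9 members tested, whereas 42.8% of all genes tested were called. Genes with high counts are called more easily, and among genes expected to have at least 50 counts per library 6 of 8 members were called, against 55.1% of all genes. Slc40a1 could not be tested. The call compares libraries and not conditions. Leaving out ribosomal and small RNA rows gave the same 6 members.

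Fth1 showed the widest range, 1.82-fold between replicate 1 and replicate 3 (adjusted p = 5.67e-156), and its coefficient of variation of 30.7% lay at the 96th percentile of the 500 genes nearest in level. It was the only member called with a range of 1.5-fold or more, a limit that 13.8% of all genes passed. Tfrc ranged 1.31-fold, highest in replicate 3 (adjusted p = 2.26e-52), and Ftl1 1.27-fold, highest in replicate 1 (adjusted p = 4.75e-27). Ireb2 ranged 1.23-fold (adjusted p = 2.51e-05), Slc25a37 1.18-fold (adjusted p = 0.000892) and Aco1 1.14-fold (adjusted p = 0.0456). Of the 9 members tested, Tfrc, Ireb2 and Aco1 were called with their highest level in replicate 3. Fth1 and Ftl1 were called highest in replicate 1, and Slc25a37 in replicate 2. Over all genes, 19.1%, 17.9% and 5.76% were called with their highest level in replicates 3, 1 and 2. Slc11a2 (adjusted p = 0.195), Ncoa4 (adjusted p = 0.557) and Steap3 (adjusted p = 0.659) were not called. Without replicate 1 Ireb2 was not called (adjusted p = 0.414), and without replicate 3 neither Slc25a37 (adjusted p = 0.504) nor Aco1 (adjusted p = 0.438) was. Without replicate 2 Aco1 was also not called (adjusted p = 0.217).

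The libraries also differed by transcript length and base composition, and this trend accompanied the shifts of some iron genes and not that of Fth1 when all exons set its length. The log2 ratio of replicate 1 to replicate 3 was 0.86 for Fth1, 0.35 for Ftl1, -0.30 for Ireb2 and -0.39 for Tfrc. Its median was 0.64 over 81 ribosomal protein rows, 0.27 over the 899 coding genes with the least exon sequence, -0.19 over the 899 with the most, and -0.02 over all genes tested. After the trend of each library with exon length and GC content was removed, 3 of 9 members were called, namely Tfrc, Fth1 and Slc25a37, against 36.0% of all genes. Ftl1 then had 312, 305 and 298 CPM (adjusted p = 0.209) and Ireb2 76.7, 78 and 77.1 CPM (adjusted p = 0.946). Tfrc had 455, 497 and 493 CPM, a range of 1.09-fold (adjusted p = 6.58e-06) with replicate 1 still lowest. Slc25a37 had 81.4, 81.7 and 66.8 CPM, a range of 1.22-fold (adjusted p = 2.61e-06), wider than before. Fth1 had 361, 251 and 196 CPM, a range of 1.84-fold (adjusted p = 1.45e-160), against 1.82-fold before. With the length and GC content of the lowest-numbered transcript, which is shorter for Fth1, its range was 1.49-fold (adjusted p = 6.98e-71), replicate 1 still highest. Against the spread among libraries typical of all genes, a biological coefficient of variation of 0.154, a negative binomial form of the test called none of the 9 members and 2.49% of all genes. At an unadjusted p under 0.05 that form passed 1 member, Fth1 (unadjusted p = 0.0155).

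**Figure D4:**
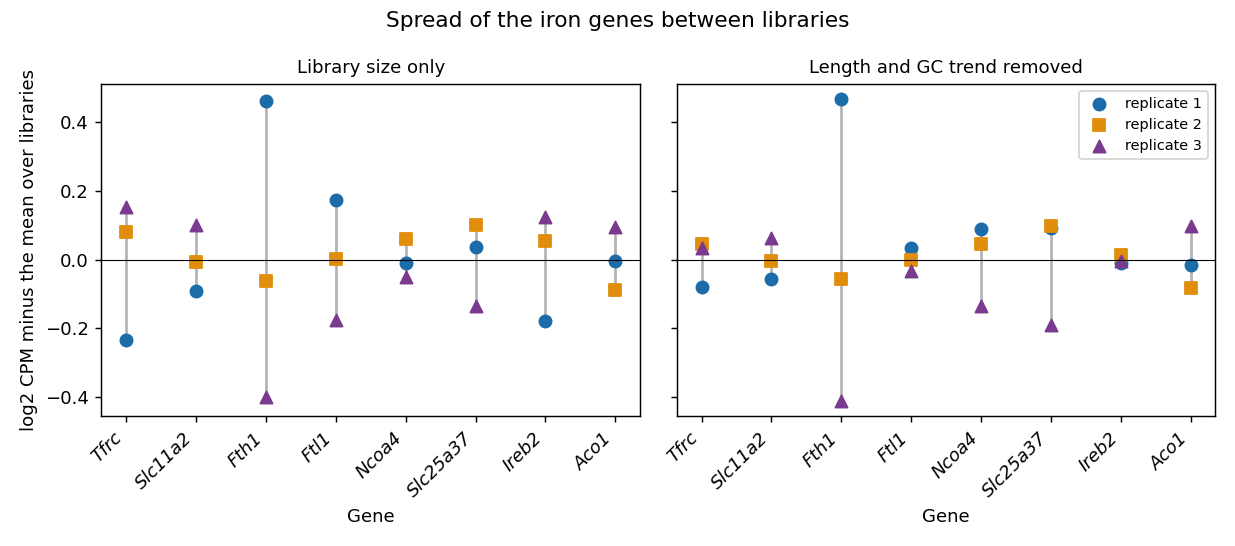
Deviation of each library from the gene's mean (log2 CPM) for 8 iron genes, before (left) and after (right) removal of each library's trend with exon length and GC content; Steap3, at 9 to 11 counts, and Slc40a1, at 0, are left out. Ftl1 and Ireb2 close up on the right, whereas Fth1 ranges 1.82-fold on the left and 1.84-fold on the right, with all exons as its length. With the lowest-numbered transcript as its length, not drawn, Fth1 ranged 1.49-fold after removal.

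Further genes of iron handling were measured on 9 lists holding 80 genes, all with a row. Of these, 50 had a mean of 10 CPM or more, against 39.8% of the 23131 rows with a count, and 10 had no counts. Their median was 18.2 CPM, against 69.1 CPM for the 10 iron genes above and 2.89 CPM for all rows with a count. The chi-square test called 30 of the 62 tested, against 42.8% of all genes tested. Of the 62, 17 were called with their highest level in replicate 1, 2 in replicate 2 and 11 in replicate 3. Over all genes tested these shares were 17.9%, 5.76% and 19.1%. The test called 8 of the 62 with a range of 1.5-fold or more, against 13.8% of all genes tested. By list, beside the same 42.8% of all genes, it called 1 of 8 tested uptake genes, 3 of 3 for storage and iron chaperones, 1 of 1 for regulation and 1 of 2 for export. It also called 6 of 13 for cytosolic clusters, 3 of 8 for haem synthesis, 1 of 5 for haem breakdown and transport and 1 of 3 of the other transcripts with an element. Among the uptake genes only 3 of 15 reached 10 CPM, namely Slc39a14, a zinc transporter that also carries non-transferrin iron, at 84.9 ± 4.57 CPM, the haem transporter Slc48a1 at 75.9 ± 4.49 CPM and the endolysosomal channel Mcoln1 at 32.7 ± 3.97 CPM. Tfr2, the second transferrin receptor, typical of liver, had 0.175 ± 0.0869 CPM.

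Genes that place iron into proteins were expressed throughout. Ndor1 (179.6 ± 1.9 CPM) and the targeting factor Mms19 (108 ± 0.361 CPM) led the cytosolic iron-sulphur cluster list. At 10 CPM or more were 13 of 13 of this list and 16 of 19 of the mitochondrial list. This compares with 39.8% of all rows with a count. The mitochondrial list was led by the chaperone Hspa9 (906 ± 107 CPM) and the cysteine desulphurase Nfs1 (53.1 ± 4.35 CPM). The chi-square test called 13 of these 19, against 42.8% of all genes. Of the 19, 9 were called and highest in replicate 1 and 4 in replicate 3, against 17.9% and 19.1% of all genes tested. Pcbp2 and Pcbp1, RNA-binding proteins that also deliver iron to ferritin, were at 502 ± 31.9 and 416 ± 83.7 CPM, while Ftmt, mitochondrial ferritin, had 0 counts. Pcbp1 had 506, 401 and 341 CPM in replicates 1, 2 and 3 (adjusted p = 7.85e-103). Pcbp2 had 473, 496 and 536 CPM (adjusted p = 1.77e-12), so the pair ran in opposite directions over the libraries. These values and chi-square p-values are from before the length and GC trend was removed.

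In haem synthesis 8 of 9 genes reached 10 CPM, against 39.8% of all rows with a count. Alas1 (55.7 ± 2.71 CPM), the housekeeping form of the first enzyme, and Alad (45.2 ± 2.3 CPM) led. Alas2, the erythroid form, averaged 0.123 ± 0.118 CPM. Haem breakdown was represented by Hmox2 (54 ± 0.9 CPM) and Hmox1, the inducible haem oxygenase, with 48.3, 42.9 and 34.2 CPM in replicates 1, 2 and 3. Of the 4 other genes whose transcripts are known for an iron response element, 2 reached 10 CPM, among them Cdc14a, a phosphatase gene, at 14.4 ± 1.11 CPM. Apart from Fbxl5, the regulation list was almost silent, with 1 of 6 genes at 1 CPM or more, against 58.6% of all rows with a count. Hamp, the gene of the hormone hepcidin, was at 0.0426 ± 0.037 CPM and Tmprss6 at 0.044 ± 0.0762 CPM.

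**Figure D5:**
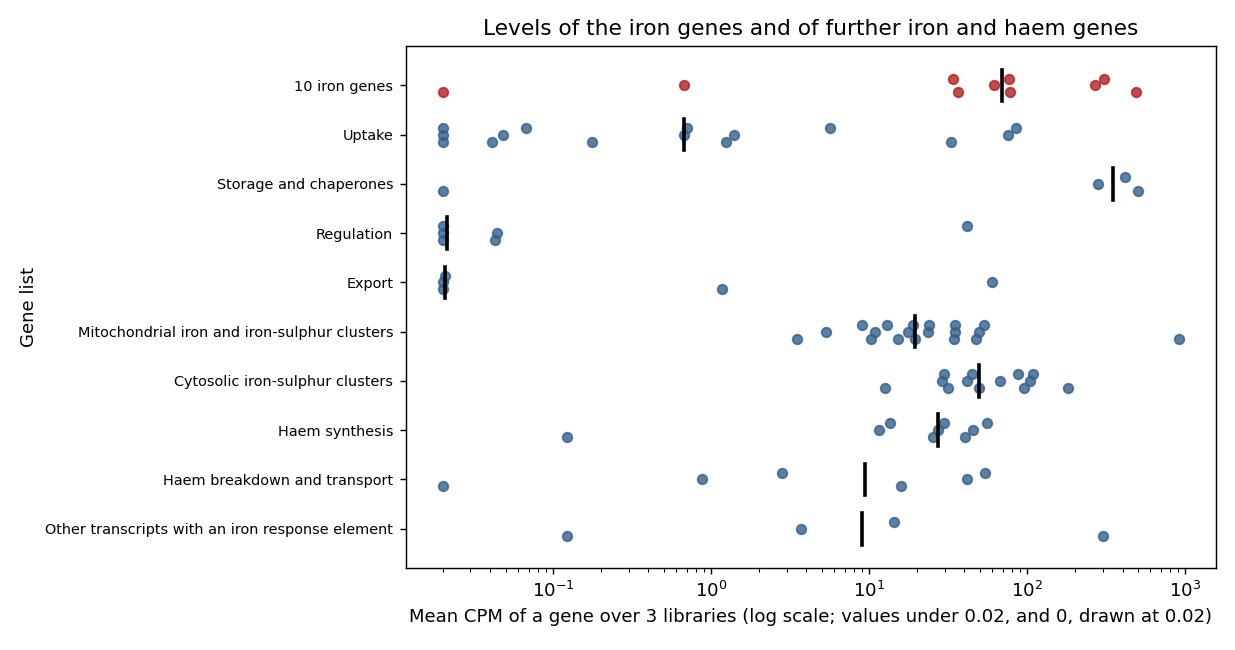
Mean CPM (log scale) of each gene on the 9 iron and haem lists, with the 10 iron genes on top; points under 0.02 CPM are drawn at 0.02 and the bar is the median of the list. The lists of iron-sulphur clusters lie mostly above 10 CPM, whereas regulation and export each have 1 gene above 10 CPM.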

How the data were processed

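The values are the raw counts the authors deposited, 1 row a gene symbol and 1 column a library. Per the submitters' processing notes the build was mm10. The aligner, counting tool, annotation and strand setting are named by no source used here. RNA was extracted with Trizol and libraries were made with an Ion Proton RNA-Seq kit, per the labels' protocols. The genes and lists were chosen with earlier results of these data known.

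Counts were scaled with TMM in edgeR 4.0.16 (R 4.3.3). Dispersion used an intercept-only design over 13676 genes. The chi-square test took genes expected to have at least 5 counts per library and called an adjusted p under 0.05. It was tested on simulated data. Trends were robust splines with 6 degrees of freedom in length and in GC content (MASS 7.3.60.0.1), over genes of 5 CPM or more. Exon lengths and coordinates came from GENCODE M21, where 32226 rows matched, 30997 of them directly, covering 92.6% of the genes tested. Copies were found with blastn 2.17.0. Named genes were the 10 members, Slc25a28, Fbxl5, Hmox1, the 2 most abundant genes of each list and the 2 most abundant copies of a member. The others (Steap1, Steap2, Steap4, Mcoln1, Tfr2, Heph, Hephl1, Ftmt, Alas2, Hamp, Gm5475, Gm20236, other genes that overlap Slc25a37, and markers at 0 counts) were named after their values were seen. Some genes that the rule names are not reported here. DESeq2 1.42.0 size factors were an alternative.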

Additional observations from a re-analysis of the deposited data

How the results depend on the processing

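The 10 iron genes had 6 calls with DESeq2 size factors (6548 of 15392 genes overall), and 4 to 6 calls in any run that left out a replicate, dropped ribosomal and small RNA rows, added near-identical copies, changed the count filter or took 0.01 as the threshold. Raw library totals gave 7, adding Slc11a2, with 7312 of 15520 genes called overall. The count fell to 1 with a 1.5-fold minimum (2130 of 15392 genes). It fell to 3 with the length and GC trend removed by either set of lengths (5562 of 15433 genes and 5561 of 15419). The negative binomial form gave 0 (384 of 15392 genes), where the added variance is the cause by construction. Without 1 replicate, 3555 to 6403 genes were called overall. Over all genes, 6591 of 15392 were called without ribosomal and small RNA rows, and 6584 of 15385 with copies added. Without a count filter 6388 of 23131 genes were called, and with at least 50 expected counts 6075 of 11027. At the threshold of 0.01, 5168 of 15392 were. Of the 7 ratios, Tfrc to Fth1 changed sign: it was -0.83 with the longest coding transcript and -1.51 with the lowest-numbered transcript, and it ranged from -0.23 to 0.40 without 1 replicate. Ireb2 to Aco1 was 0.33 without division by length, and Slc25a37 to Slc25a28 was -0.31 with the longest coding transcript and also with the lowest-numbered one. Changes with the length used follow from it by construction; for the left-out replicates the cause was not tested. Fth1 to Ftl1, Tfrc to Slc11a2, Tfrc to Slc40a1 and Ncoa4 to Fth1 kept their sign under these settings. With copies added, however, Fth1 to Ftl1 moved to -2.25 and Ncoa4 to Fth1 to -3.01. For single genes, 23 calls were lost and 1 gained over all settings, and of the levels only those of Ftl1 and Ncoa4, with copies added, moved by more than 1 SD. No paired analysis was possible because the libraries form 1 group. With 9 to 11 counts, differences in Steap3 below about the width of its intervals were not detectable.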
